A study of Mus musculus with 11 samples.

Results

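The endothelin and renin-angiotensin genes examined were *Edn1*, *Edn3*, *Ednra*, *Ednrb*, *Ece1*, *Agt*, *Ace*, *Agtr1a* and *Agtr2*, picked by gene symbol from the 55487 genes that were counted. All 9 passed the minimum of 10 counts over the hearts, as did 24177 genes in all. RNA was sequenced from isolated embryonic hearts at E14.5, 5 of them *Pde2A*-/- and 6 *Pde2A*+/+, to compare the transcriptomes of the genotypes. The embryos were of the B6; 129P2-Pde2A tm1Dgen line, on a B6 and 129P2 background. The tm1Dgen allele is the knockout allele, which *Pde2A*+/+ embryos lack by genotype. The embryos came from matings of heterozygous mice and were of both sexes, and no treatment is stated for these hearts. The *Pde2A*-/- embryos lack the phosphodiesterase in every cell and not in the heart alone. Each heart was 1 library. No litter is stated, so the p-values measure the spread between these hearts, which may share mothers.

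Endothelins are short vasoactive peptides. Edn1 and Edn3 are made as precursors, cut to the active form by the membrane protease Ece1, and bound by the receptors Ednra and Ednrb. In the embryo the Edn1 and Ednra pair guides cells of the neural crest in the pharyngeal arches and outflow tract, and the Edn3 and Ednrb pair guides those that form melanocytes and enteric neurons. Angiotensinogen, the product of *Agt*, is cut by renin and then by Ace to angiotensin II, which acts on the receptors encoded by *Agtr1a* and *Agtr2*.

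Of the 9 genes, *Edn1*, *Ednrb* and *Ece1* were higher in *Pde2A*-/- hearts, 0 were lower and 6 did not pass the test (edgeR quasi-likelihood test, Benjamini-Hochberg adjusted p under 0.05 over 24177 genes). All 3 calls were lost when 4 hearts that carried liver markers were left out. Far fewer of all genes were called in that smaller fit too, as given below. The log2 fold changes there were 0.69 for *Edn1*, 0.59 for *Ednrb* and 0.38 for *Ece1*, against 0.96, 0.50 and 0.42 with every heart. The *Edn1* call was also lost without 2 hearts with lung or thymus markers. Among all genes tested, 8.93% were called higher and 5.67% lower, and 14.6% in either direction. The 3 called genes belong to the endothelin system, and 0 of the 4 genes of the renin-angiotensin system were called. The median log2 fold change of the 9 genes was 0.22, against -0.02 over all genes tested. None of the 9 reached a 2-fold change, which 2.59% of all genes did with an adjusted p under 0.05. None lies on chromosome 7, which holds *Pde2a*.

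Sequences just upstream of a RefSeq start are shown for the 3 called genes because these genes were called in the same comparison. Each is the 250 bases before a RefSeq transcription start (GRCm38.p6), 5′ to 3′ on the strand of the gene. RefSeq promoters were at hand for 8 of the 9 genes, *Agtr1a* being the one without. Capitals mark matches, on either strand, to the cAMP response element TGACGTCA or the TGACG it contains, to the hypoxia-inducible factor cores ACGTG and GCGTG, to the AP-1 motif TGANTCA and to the GATA motif AGATAA. The *Edn1* window is chr13:42301226-42301475 on the plus strand, the *Ednrb* window chr14:103843702-103843951 on the minus strand, and the *Ece1* window, the first of 4 for that gene, chr4:137861987-137862236 on the plus strand.
Edn1: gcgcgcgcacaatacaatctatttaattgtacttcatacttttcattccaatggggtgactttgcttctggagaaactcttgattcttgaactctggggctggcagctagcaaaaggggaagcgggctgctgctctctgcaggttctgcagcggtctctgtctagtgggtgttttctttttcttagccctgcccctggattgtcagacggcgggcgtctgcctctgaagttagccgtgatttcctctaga
Ednrb: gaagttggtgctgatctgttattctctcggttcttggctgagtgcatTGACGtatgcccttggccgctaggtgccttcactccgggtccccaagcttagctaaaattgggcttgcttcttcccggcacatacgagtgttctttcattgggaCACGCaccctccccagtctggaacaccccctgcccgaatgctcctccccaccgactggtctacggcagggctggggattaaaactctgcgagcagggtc
Ece1: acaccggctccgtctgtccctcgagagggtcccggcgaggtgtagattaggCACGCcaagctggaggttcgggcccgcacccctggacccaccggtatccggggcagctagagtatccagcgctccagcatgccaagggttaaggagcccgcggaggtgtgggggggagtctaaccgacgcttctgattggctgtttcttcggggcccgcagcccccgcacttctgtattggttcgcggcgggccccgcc
The *Edn1* window held 0 matches. The *Ednrb* window held TGACG from position -203 and CACGC, the reverse complement of GCGTG, from -99, counted from the start. The *Ece1* window held CACGC from -199. Of the other *Ece1* windows, the second overlaps the first and holds the same CACGC. The third holds CACGTG from -90, which reads ACGTG on either strand, CACGC from -74 and GCGTG from -33, and the fourth holds 0 matches. The third is not printed because 87 of its bases lie in an annotated exon. Of 32851 promoters of the same length, 1.55% held TGACGTCA, 17.8% TGACG, 16.6% ACGTG, 28.2% GCGTG, 6.75% TGANTCA and 9.99% AGATAA. In the GENCODE M21 annotation none of the 3 printed windows lies in an exon of its gene. The *Ednrb* window is not upstream of the annotated gene. It lies inside the span of the gene, 103814625 to 103844402, downstream of its outermost start, and the other 2 printed windows end just before their genes. A match is a description of the letters and not a bound site.

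*Edn1* (ENSMUSG00000021367, GRCm38 chromosome 13, 42301476 to 42307990) encodes endothelin-1, a vasoconstrictor peptide released by endothelium. In CPM (counts scaled to a common library size, after the TMM normalization of edgeR), the *Pde2A*-/- hearts had 12.8 in replicate A, 19.0 in B, 27.5 in 14, 26.3 in D and 32.4 in 15. The *Pde2A*+/+ hearts ran from 9.72 to 18.8 with a median of 10.96. Thus 4 of the 5 *Pde2A*-/- hearts lay above every *Pde2A*+/+ heart, replicate A lay inside the *Pde2A*+/+ range, and *Pde2A*+/+ replicate 8 was well above the other *Pde2A*+/+ hearts. The means were 23.6 ± 7.73 (SD, n = 5) and 12.1 ± 3.43 CPM (SD, n = 6), and the fitted log2 fold change was 0.96 (SE 0.22, 95% interval 0.48 to 1.44, adjusted p = 0.0150 by edgeR). This is a 1.94-fold difference, with an interval from 1.39 to 2.72. Mitochondrial genes took 3.21% of the counts in *Pde2A*-/- replicate A, 2.91% in B, 2.30% in 14, 1.94% in D and 2.07% in 15, and 3.11% to 3.60% in *Pde2A*+/+ hearts. Replicate A was thus the one *Pde2A*-/- heart inside the *Pde2A*+/+ range for both measures, and the part of this share in the *Edn1* result was not tested. *Edn1* was no longer called without *Pde2A*+/+ replicates 7 and 11 (log2 fold change 0.89, adjusted p = 0.0565 by edgeR). It was also not called without the 4 hearts with liver markers (0.69, adjusted p = 0.246 by edgeR).

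*Edn3* (ENSMUSG00000027524, chromosome 2, 174760619 to 174784042), the ligand with the strongest known link to Ednrb, was scarcely detected. Between 10 and 31 counts fell on it per heart. The *Pde2A*-/- hearts A, B, 14, D and 15 had 0.365, 0.354, 0.572, 0.833 and 0.358 CPM, and the *Pde2A*+/+ hearts ran from 0.261 to 0.842 with a median of 0.441. The genotypes overlapped throughout. The means were both 0.497 CPM, with SDs of 0.209 (n = 5) and 0.206 (n = 6), and the interval of the log2 fold change, -0.70 to 0.69 (adjusted p = 0.996 by edgeR), still allows a change of either sign.

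*Ece1* (ENSMUSG00000057530, chromosome 4, 137862237 to 137965229), the converting enzyme, had 323 CPM in *Pde2A*-/- replicate A, 378 in B, 296 in 14, 305 in D and 269 in 15. The *Pde2A*+/+ hearts ran from 204 to 264 with a median of 237. All *Pde2A*-/- hearts were above all *Pde2A*+/+ hearts, as for 5.38% of all genes tested (8.49% were apart in either direction), though the lowest *Pde2A*-/- heart and the highest *Pde2A*+/+ heart were close. The means were 314 ± 40.5 (SD, n = 5) and 234 ± 25.2 CPM (SD, n = 6), with a log2 fold change of 0.42 (SE 0.09, interval 0.23 to 0.62, adjusted p = 0.00959 by edgeR). The fold change was 1.34, from 1.17 to 1.53. The call was lost without the 4 hearts with liver markers (log2 fold change 0.38, adjusted p = 0.151 by edgeR).

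*Ednrb* (ENSMUSG00000022122, chromosome 14, 103814625 to 103844402) encodes the type B receptor, which binds the endothelins with like affinity and which endothelium uses to clear endothelin-1. Its CPM was 259 in *Pde2A*-/- replicate A, 224 in B, 186 in 14, 219 in D and 205 in 15. In *Pde2A*+/+ hearts it ran from 125 to 169 with a median of 162. These genotypes did not overlap either, and the *Pde2A*-/- heart with the highest *Ednrb*, replicate A, was the one with the lowest *Edn1*. The means were 219 ± 27.3 (SD, n = 5) and 155 ± 17.4 CPM (SD, n = 6), with a log2 fold change of 0.50 (SE 0.09, interval 0.30 to 0.70, adjusted p = 0.00418 by edgeR), or 1.41-fold with an interval from 1.23 to 1.62. Without the 4 hearts with liver markers the log2 fold change was 0.59 and the adjusted p 0.0609 by edgeR.

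*Ednra* (ENSMUSG00000031616, chromosome 8, 77663031 to 77724464), the type A receptor of smooth muscle and mesenchyme, had 68.2, 64.2, 79.9, 78.6 and 87.9 CPM in *Pde2A*-/- replicates A, B, 14, D and 15, and 63.2 to 71.0 with a median of 69.9 in *Pde2A*+/+ hearts. Replicates 14, D and 15 were above every *Pde2A*+/+ heart, and A and B were within the *Pde2A*+/+ range. The means were 75.8 ± 9.56 (SD, n = 5) and 68.1 ± 3.46 CPM (SD, n = 6), and the log2 fold change of 0.15 (SE 0.07, interval -0.01 to 0.31, adjusted p = 0.183 by edgeR) did not pass the test. It passed when *Pde2A*-/- replicate B was left out, with a log2 fold change of 0.21 and an adjusted p of 0.0482 by edgeR. Over all the alternatives the adjusted p ran from 0.0482 to 0.422.

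**Figure D1:**
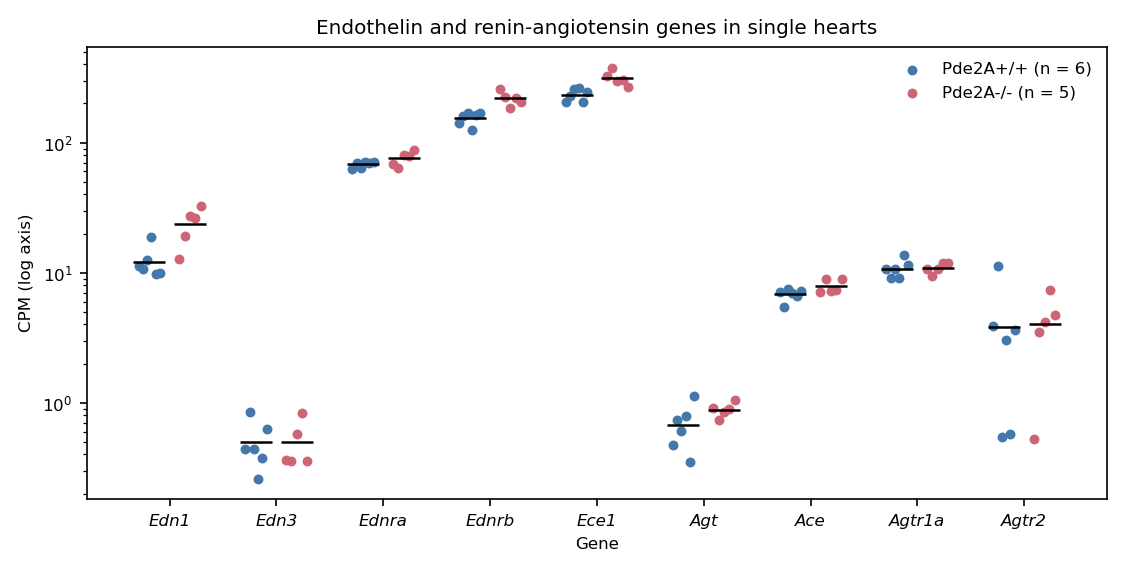
CPM of the 9 genes (horizontal axis) on a logarithmic vertical axis, with 1 point for each heart, blue for the 6 *Pde2A*+/+ and red for the 5 *Pde2A*-/- hearts, and black lines for the means. *Ednrb* and *Ece1* do not overlap between the genotypes, 1 *Pde2A*-/- heart lies among the *Pde2A*+/+ hearts for *Edn1*, and *Agtr2* runs from 0.522 to 11.3 CPM.

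In the renin-angiotensin system, *Agt* (ENSMUSG00000031980, chromosome 8, 124556534 to 124569706), the precursor that the liver chiefly supplies, had 14 to 47 counts per heart. The *Pde2A*-/- hearts A, B, 14, D and 15 had 0.913, 0.732, 0.846, 0.888 and 1.05 CPM, and the *Pde2A*+/+ hearts 0.348 to 1.13 with a median of 0.668. All *Pde2A*-/- values fell inside the *Pde2A*+/+ range. The means were 0.885 ± 0.114 (SD, n = 5) and 0.678 ± 0.274 CPM (SD, n = 6), and the log2 fold change was 0.38 (interval -0.18 to 0.94, adjusted p = 0.352 by edgeR). The highest *Agt*, in *Pde2A*+/+ replicate E, came with the highest summed level of 8 liver markers, 118 CPM. The liver markers summed to 44.2 CPM in *Pde2A*-/- replicate D, 46.2 in *Pde2A*+/+ replicate 11 and 39.8 in H, and to at most 7.49 in the others. *Agt* was lowest in *Pde2A*+/+ replicate H.

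*Ace* (ENSMUSG00000020681, chromosome 11, 105967945 to 105989964), the converting enzyme of endothelial surfaces, had 7.07, 8.92, 7.22, 7.36 and 8.98 CPM in *Pde2A*-/- replicates A, B, 14, D and 15. The *Pde2A*+/+ hearts ran from 5.49 to 7.48 with a median of 6.995. Replicates B and 15 were above every *Pde2A*+/+ heart and the other 3 were not. The means were 7.91 ± 0.957 (SD, n = 5) and 6.80 ± 0.714 CPM (SD, n = 6), and the log2 fold change was 0.22 (SE 0.10, interval -0.00 to 0.44, adjusted p = 0.169 by edgeR).

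*Agtr1a* (ENSMUSG00000049115, chromosome 13, 30336441 to 30382867), the main type 1 receptor, had 10.7, 9.51, 10.7, 11.9 and 11.8 CPM in *Pde2A*-/- replicates A, B, 14, D and 15, and 9.10 to 13.6 with a median of 10.7 in *Pde2A*+/+ hearts. The genotypes overlapped throughout. The means were 10.9 ± 0.985 (SD, n = 5) and 10.8 ± 1.65 CPM (SD, n = 6), and the log2 fold change was 0.02 with an interval from -0.21 to 0.25 (adjusted p = 0.917 by edgeR). The paralog *Agtr1b* had 0 to 3 counts per heart. Reads that aligned equally to both genes were counted on neither, so both levels may be too low.

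*Agtr2* (ENSMUSG00000068122, chromosome X, 21484544 to 21489164), the type 2 receptor of fetal mesenchyme, was the most variable of the 9 genes. The *Pde2A*-/- hearts had 0.522 CPM in replicate A, 3.52 in B, 4.18 in 14, 7.33 in D and 4.71 in 15. The *Pde2A*+/+ hearts had 3.86 in replicate 7, 11.3 in 11, 0.548 in 6, 3.06 in 8, 0.572 in H and 3.65 in E. So 3 hearts, 1 *Pde2A*-/- and 2 *Pde2A*+/+, were below 1 CPM and the other 8 above 3. The coefficient of variation reached 60.4% among *Pde2A*-/- and 103% among *Pde2A*+/+ hearts. The interval of the log2 fold change was -1.41 to 1.57 (adjusted p = 0.952 by edgeR). On the linear scale that interval runs from 0.377-fold to 2.98-fold. The summed level of 8 fibroblast markers was 7242, 5990 and 6969 CPM in the 3 low hearts, *Pde2A*-/- A and *Pde2A*+/+ 6 and H, and 11494 and 11079 CPM in the 2 highest, *Pde2A*-/- D and *Pde2A*+/+ 11. It was 7097 CPM in *Pde2A*-/- B and 7268 in *Pde2A*+/+ 7, where *Agtr2* was not low, and its part in the spread was not tested.

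Levels of different genes were compared as CPM per kilobase of exon. In *Pde2A*+/+ hearts *Ece1* (44.2 ± 4.76, SD, n = 6) and *Ednrb* (36.3 ± 4.07) led. *Ednra* (12.4 ± 0.631), *Edn1* (5.67 ± 1.60), *Agtr1a* (3.86 ± 0.593), *Ace* (1.29 ± 0.135), *Agtr2* (1.15 ± 1.18), *Agt* (0.358 ± 0.145) and *Edn3* (0.121 ± 0.0502) followed. The ranges over *Pde2A*+/+ hearts overlapped between *Ece1* and *Ednrb*, *Edn1* and *Agtr1a*, *Ace* and *Agtr2*, *Agtr2* and *Agt*, and *Agt* and *Edn3*, and did not between the other neighbours. The order of the means was the same in *Pde2A*-/- hearts. There *Edn1* (11.04 ± 3.62, SD, n = 5) overlapped *Ednra* (13.8 ± 1.75) and no longer *Agtr1a* (3.92 ± 0.354).

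Ratios within a heart do not depend on library size. The log2 ratio of *Ednra* over *Ednrb* per kilobase averaged -1.89 with an SD of 0.33 over the 5 *Pde2A*-/- hearts, against -1.54 with an SD of 0.19 over the 6 *Pde2A*+/+ hearts, so type B receptor RNA was the more abundant in every heart. The difference of -0.35 gave a two-sided p of 0.0563 when the hearts were permuted exactly, and 0.152 after adjustment over 4 ratios, of which 3 are given. *Edn1* over *Edn3* averaged 6.49 ± 0.59 and 5.57 ± 0.85, a difference of 0.92 (exact permutation p = 0.0758, adjusted 0.152). Without *Pde2A*+/+ replicate 8 it was 1.21 with an adjusted exact permutation p of 0.0317, and leaving out each heart in turn gave 0.0317 to 0.333. The ratio of *Agtr1a* over *Agtr2* averaged 2.08 ± 1.43 and 2.45 ± 1.85 (exact permutation p = 0.729). None of these 3 differences passed the adjusted test with all hearts, and the smallest p these groups allow is 0.0022.

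**Figure D2:**
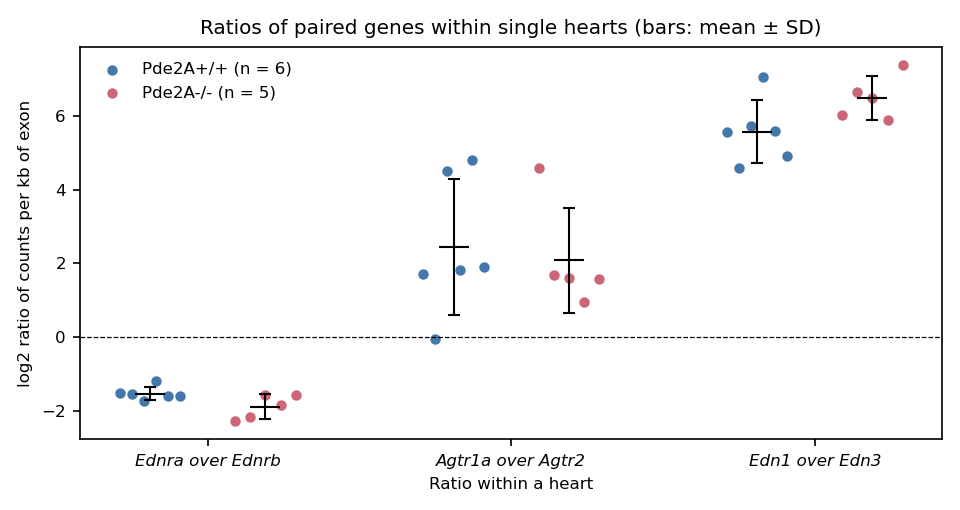
Log2 ratios of counts per kilobase of exon (vertical axis) for 3 pairs of genes (horizontal axis) in single hearts, blue for *Pde2A*+/+ and red for *Pde2A*-/-, with bars for the mean ± SD. *Ednra* over *Ednrb* lies below 0 in every heart, and the genotypes overlap for all 3 ratios.

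A further 36 genes of the same pathways were read from lists of 5 endothelin, 17 angiotensin and 14 Gq signalling genes. Of these, 11 were higher in *Pde2A*-/- hearts, 2 lower and 23 did not pass the test, beside 8.93% and 5.67% of all genes, and their median log2 fold change was 0.15. The largest change was in *Kel*, a red cell surface protease that can process endothelin-3. *Kel* averaged 25.4 ± 7.11 CPM (SD, n = 5) against 3.30 ± 1.45 (SD, n = 6), with a log2 fold change of 2.94 (adjusted p = 2.38e-05 by edgeR), and the genotypes did not overlap. Of 7 erythroid markers 6 were called higher and *Alas2* was not (log2 fold change -0.60, adjusted p = 0.221 by edgeR), and the sum of the 7 ran from 428 to 872 CPM in *Pde2A*-/- and from 106 to 484 in *Pde2A*+/+ hearts. Globin genes took 0.56% to 0.88% of the counts in *Pde2A*-/- and 0.45% to 1.64% in *Pde2A*+/+ hearts, and these ranges overlapped. The part of erythroid cells in the *Kel* result was not tested.

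Of the other endothelin genes, *Edn2*, the third ligand, averaged 0.870 ± 0.577 CPM (SD, n = 5) and 0.425 ± 0.154 (SD, n = 6), with a log2 fold change of 1.02 that did not pass (adjusted p = 0.108 by edgeR). *Ece2*, a homologue of *Ece1*, had 1 to 6 counts per heart. It shares 57.5% of its exon bases with *Gm49333* on the same strand, and reads on both genes are not counted on either.

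Of the 17 angiotensin genes 4 were higher and 1 lower, beside 8.93% and 5.67% of all genes tested. The renin receptor *Atp6ap2* had a log2 fold change of 0.37 (adjusted p = 0.00406), the type 1 receptor partner *Agtrap* 0.40 (0.00224), the angiotensin-cleaving carboxypeptidase *Prcp* 0.39 (2.66e-04) and the aspartic protease *Ctsd* 0.36 (5.68e-04), all by edgeR. *Prcp* and *Ctsd* lie on chromosome 7, as does *Pde2a*, and the part of the linked chromosome in their results was not tested. *Ctsd* shares 34.4% of its exon bases with *Gm49369* on the same strand. *Prep*, a peptidase that can form angiotensin 1-7, fell by 0.37 on the log2 scale (adjusted p = 0.00942 by edgeR), and all 5 *Pde2A*-/- hearts lay below all *Pde2A*+/+ hearts, as for 3.11% of all genes.

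Renin itself was near the limit of detection: *Ren1* had 0 to 14 counts per heart, and a copy of the gene that some mouse strains carry could not be told apart from it. *Mas1*, the angiotensin 1-7 receptor, had 0 to 5 counts per heart, so a difference was not detectable at this depth. *Cma1*, the mast cell chymase that can form angiotensin II, averaged 0.425 ± 0.0878 (SD, n = 5) and 1.12 ± 0.730 CPM (SD, n = 6), with a log2 fold change of -1.39 (adjusted p = 0.0594 by edgeR).

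Of the 14 genes on the Gq signalling list, 6 were higher and 1 lower, beside 8.93% and 5.67% of all genes tested. The endothelin receptors and the type 1 angiotensin receptor act through Gq. The list also holds *Gna12* and *Gna13*, which encode G proteins of a family other than Gq. All 3 inositol trisphosphate receptor genes were called higher: *Itpr1* by a log2 fold change of 0.35 (adjusted p = 0.00833), *Itpr2* by 0.34 (0.00127) and *Itpr3* by 0.30 (0.0229), by edgeR. The phospholipase gene *Plcb3* (0.34, adjusted p = 0.00612), the G protein gene *Gna13* (0.43, 0.0273) and the protein kinase C gene *Prkce* (0.27, 0.0237) were also higher by edgeR. *Gna11*, named after its values were seen as the smallest of the 13 called changes, fell by 0.20 on the log2 scale (adjusted p = 0.0418 by edgeR). *Gnaq* itself had a log2 fold change of -0.08 (adjusted p = 0.291 by edgeR).

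**Figure D3:**
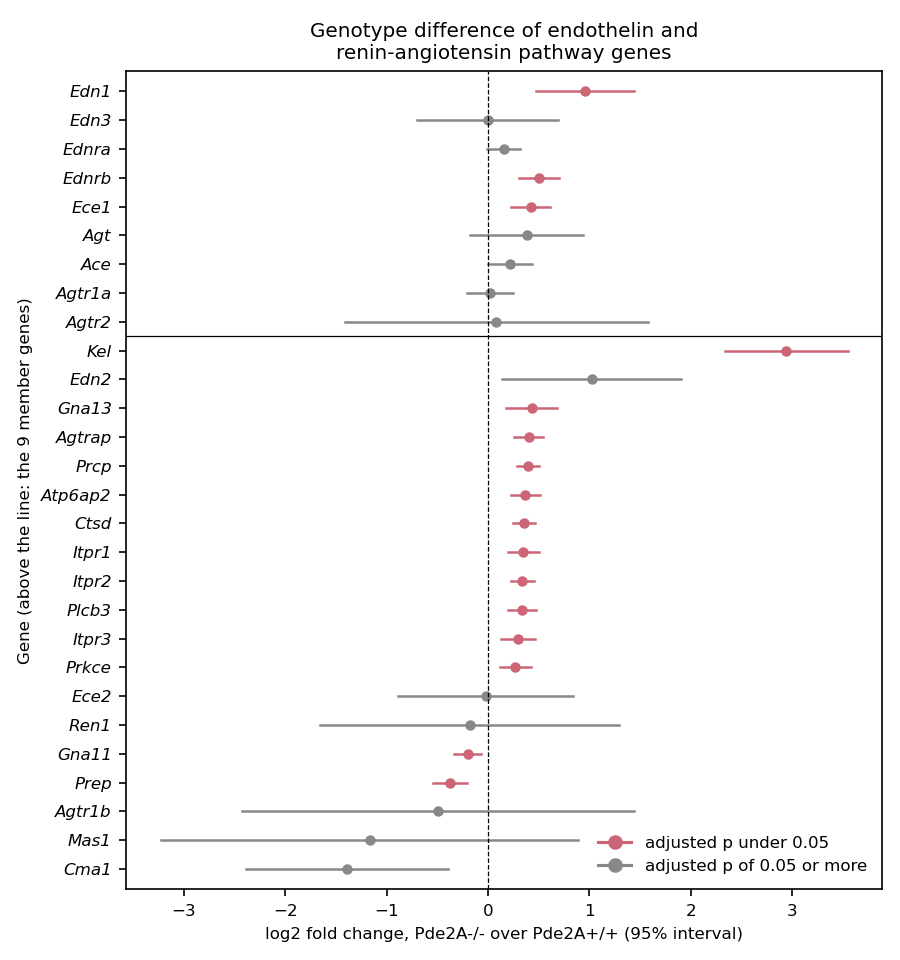
Log2 fold changes of *Pde2A*-/- over *Pde2A*+/+ hearts (horizontal axis, edgeR) with 95% intervals for the 9 genes above the line and, below it, the 13 other pathway genes that passed the test and 6 further named ones; red marks an adjusted p under 0.05. *Edn1*, *Ednrb* and *Ece1* are red above the line, and *Kel* has the largest change, 2.94.

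Markers of the cells that make these RNAs are given beside the results, since in whole hearts fewer cells of a type and less RNA per cell cannot be told apart. Over all genes tested, 8.93% were called higher and 5.67% lower. The sum of 10 endothelial markers ran from 1440.5 to 1629 CPM in *Pde2A*-/- and from 1210 to 1440.3 in *Pde2A*+/+ hearts. Of these, *Pecam1* (log2 fold change 0.34, adjusted p = 0.00612), *Emcn* (0.50, 0.00270) and *Egfl7* (0.22, 0.0490) were higher and *Cldn5* (-0.79, 7.01e-04) lower by edgeR, while *Cdh5*, the defining cadherin of endothelium, had a log2 fold change of 0.00 (adjusted p = 0.9996). The 4 endocardial markers summed to 448 to 611 CPM in *Pde2A*-/- and 411 to 553 in *Pde2A*+/+ hearts, with *Nfatc1* higher (0.34, adjusted p = 0.0189 by edgeR). Of 6 coronary endothelial markers 0 were called higher and *Aplnr* lower (-0.61, adjusted p = 0.0112 by edgeR), with a median log2 fold change of 0.01 and sums of 531 to 646 against 508 to 622 CPM. All 8 macrophage markers were higher, with sums of 192 to 264 against 97.4 to 155 CPM. Of 8 fibroblast markers 3 were higher and 0 lower, and of 8 smooth muscle and pericyte markers 0 were higher and 1 lower. Of 9 cardiomyocyte markers 0 were higher and 2 lower. They were abundant in every heart, with sums of 32964 to 44790 CPM. Of 8 neural crest, glial and melanocyte markers, *Foxd3* had 0 counts in every heart, and the sums overlapped, 9.51 to 16.9 against 11.1 to 18.2 CPM. *Mlana*, a melanocyte gene, was called higher (1.38, adjusted p = 0.0361) and *Fabp7*, a glial gene, lower (-0.77, 0.0339) by edgeR. The part of these cells in the *Edn1*, *Ednrb* and *Ece1* results was not tested.

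Some libraries of both genotypes also held markers of other tissues. Markers listed for lung epithelium summed to 40.4 and 43.6 CPM in *Pde2A*+/+ replicates 7 and 11 and to at most 3.68 in the other hearts. Of that list *Epcam* and *Cdh1* made up most of the sum, and *Sftpc*, *Sftpb* and *Cldn18* had fewer than 10 counts over all hearts. The thymus markers summed to 53.7 CPM in *Pde2A*+/+ replicate 7 and at most 0.435 elsewhere. The 6 skeletal muscle markers summed to 7.72 CPM in *Pde2A*-/- B, 5.11 in D, 3.45 in *Pde2A*+/+ 11 and 3.41 in E. Their sum was at most 1.57 CPM in the other hearts, and 0 of the 6 were called. The 3 called genes were fitted again without hearts with lung or thymus markers, and without hearts with liver markers, a choice made after the data had been seen. No fit left out hearts for their skeletal muscle markers. Without *Pde2A*+/+ replicates 7 and 11, *Ednrb* (log2 fold change 0.48, adjusted p = 0.0199) and *Ece1* (0.37, 0.0426) were still called by edgeR, and *Edn1* (0.89, 0.0565) was not. Without the 4 hearts with liver markers (*Pde2A*-/- D and *Pde2A*+/+ 11, H and E), the log2 fold changes were 0.59 for *Ednrb* (adjusted p = 0.0609), 0.38 for *Ece1* (0.151) and 0.69 for *Edn1* (0.246) by edgeR, and 0 of the 9 genes were called. In that fit of 7 hearts, 482 genes were called higher and 50 lower among all genes, against 2160 and 1372 with every heart. With single hearts left out in turn, *Edn1*, *Ednrb* and *Ece1* passed every time, with log2 fold changes of 0.82 to 1.13, 0.44 to 0.55 and 0.35 to 0.48.

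**Figure D4:**
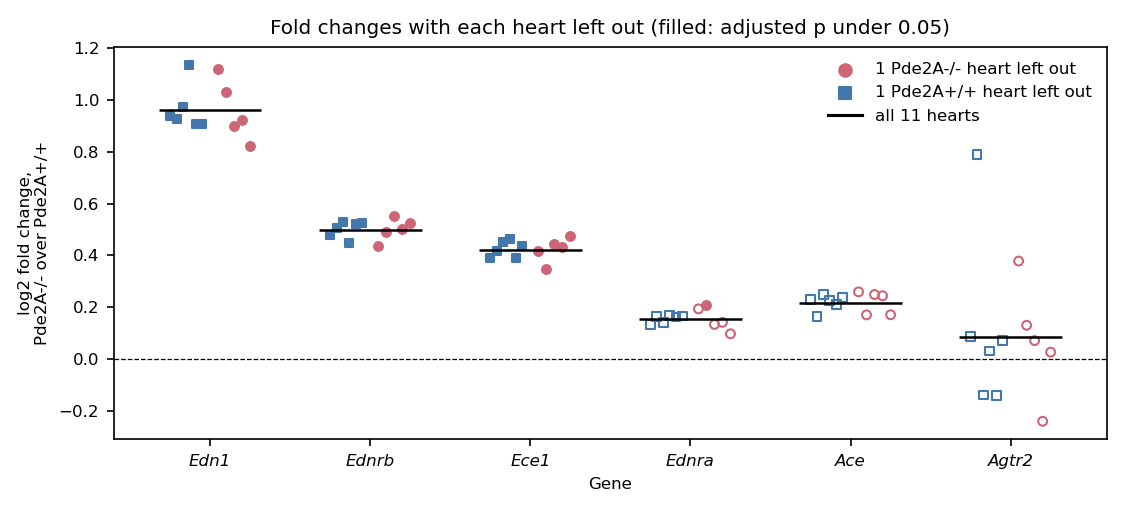
Log2 fold changes of *Pde2A*-/- over *Pde2A*+/+ hearts (vertical axis, edgeR) for 6 of the genes (horizontal axis) with each heart left out in turn, circles for *Pde2A*-/- and squares for *Pde2A*+/+ hearts, filled where the adjusted p is under 0.05; black lines give all 11 hearts. *Edn1*, *Ednrb* and *Ece1* are filled throughout, *Ednra* only without *Pde2A*-/- replicate B, and *Agtr2* crosses 0.

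For 7 of the genes, those with a mean of at least 1 CPM, the genes with the most similar pattern were found by Pearson's r of log2 CPM over the 11 hearts among 13059 genes. These values are a description: they pool both genotypes, and the points share each heart's library. *Edn1* was most like *Olfml2b* (r = 0.985), *Gm2a* (0.976) and *Tmem88b* (0.975). *Ednrb* was most like *Fgd5* (0.967), *Man2a2* (0.962) and *Tgfbr3* (0.953), and *Ece1* like *Eng* (0.960), *Pigs* (0.958) and *Tie1* (0.951). *Eng* and *Tie1* encode receptors of endothelial cells. *Ednra* was most like *Lcorl* (0.972), *Ace* like *Cideb* (0.915), *Agtr1a* like *Cacnb2* (0.932) and *Agtr2* like *Hdac4* (0.933).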

How the data were processed

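Stranded poly(A) libraries of 11 hearts were sequenced in single-end mode. The authors aligned them to GRCm38 by STAR (version not given in the sources used here) and deposited, per heart, the raw counts of reads on each gene, unnormalized. The column of reads on the sense strand was used, with 35865537 to 42835382 counts per heart. Reads on no single gene, 19.6% to 22.4%, stayed out of library sizes. GENCODE M21 held 55227 of the 55487 gene identifiers and gave names and positions. Hearts of 1 genotype differed by at least 16.0 times counting error, so none was counted as a duplicate. *Pde2a* had 0 to 2 counts per heart in *Pde2A*-/- and in *Pde2A*+/+ hearts alike, and could not check the genotypes. Reads that overlap several genes are counted on none of them. The low count in *Pde2A*+/+ hearts is therefore not a measure of *Pde2a* expression, and its reason was not tested.

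Only genes reaching 10 counts in total were fitted with edgeR 4.0.16 in R 4.3.3 (TMM, quasi-likelihood test, Benjamini-Hochberg adjustment). The common biological coefficient of variation was 16.8%. Ratios had 0.5 counts added to each gene. The 95% intervals of the fold changes used scipy 1.17.1. Tables and plots used matplotlib 3.10.9 and pandas 2.3.3 with numpy 2.4.6 under Python 3.11.15. Named beside the 9 genes were *Edn2*, *Ece2*, *Kel*, *Ren1*, *Cma1*, *Agtr1b* and *Mas1*, and up to 12 called pathway genes by size of change. Called or defining markers were named too, and so were up to 3 genes most like a gene. *Gnaq* was named after its values were seen. The genes, lists and motifs were chosen with earlier results of these data known. In simulated data the test recovered 103 of 200 genes given a log2 change of 0.5, with 5 wrong calls among 23650 genes, and 166 of 200 changed by 1 with 12 wrong among 23691.

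The alternatives were DESeq2 1.42.0, its size factors in edgeR, filterByExpr, no filter, reads of both strands, haemoglobin genes left out, *Xist* or the style of the replicate names as covariate, a 2-fold threshold, 1 count added in ratios, and each heart left out. Protein sequences were not used here. For 1 pathway gene neither the result nor the ratio is reported here; pathway counts include that gene.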

Additional observations from a re-analysis of the deposited data

Results flagged for a closer look

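The gap between the most extreme heart and its nearest neighbour was unusually wide for its group in 4 of 66 groups examined, where chance gives about 1 in 20. *Edn1* was highest in *Pde2A*+/+ replicate 8, at 18.8 CPM, with the next *Pde2A*+/+ heart at 12.4. *Agtr2* was highest in *Pde2A*+/+ replicate 11, at 11.3 CPM, with the next at 3.86. The log2 ratio of *Agtr1a* over *Agtr2* was highest in *Pde2A*-/- replicate A, at 4.58, with the next at 1.69. *Agtrap* was lowest in *Pde2A*+/+ replicate 8, at 32.8 CPM, with the next at 36.0.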

How the results depend on the processing

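*Edn1*, *Ednrb* and *Ece1* stayed higher and past the threshold under the 8 other settings of the test and with each heart left out, and lost the call only as given above when several hearts were left out. With single hearts left out, the log2 fold changes were 0.82 to 1.13 for *Edn1*, 0.44 to 0.55 for *Ednrb*, 0.35 to 0.48 for *Ece1* and 0.10 to 0.21 for *Ednra*, which passed without *Pde2A*-/- replicate B. The cause was not tested. Without *Pde2A*+/+ replicates 7 and 11, *Edn1* was at 0.89, and without the 4 hearts with liver markers *Edn1*, *Ednrb* and *Ece1* were at 0.69, 0.59 and 0.38, called in 0 cases. Both of these fits also have fewer hearts. A 2-fold threshold left 0 of the 9 genes.

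Genes whose difference was near 0 changed sign. *Edn3* was at 0.0023 with no filter, 0.032 with reads of both strands, 2.81e-05 without haemoglobin genes, 0.15 with *Xist* as covariate, 0.21 without *Pde2A*+/+ replicates 7 and 11, 0.12 without the hearts with liver markers, and -0.26 to 0.21 with single hearts left out. *Agtr1a* was at -0.0088 with naming style as covariate, -0.039 without *Pde2A*+/+ replicates 7 and 11, and -0.022 to 0.10 with single hearts left out. *Agtr2* ran from -0.24 to 0.79 with single hearts left out, and was at 1.04 without *Pde2A*+/+ replicates 7 and 11 (adjusted p = 0.331 by edgeR) against 0.08 with every heart. For the ratios these ranges were -0.99 to 0.10 for *Agtr1a* over *Agtr2* and 0.69 to 1.21 for *Edn1* over *Edn3*.

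Over all genes, 2160 were higher and 1372 lower. The counts higher were 535 with a 2-fold threshold, 2791 by DESeq2, 482 without the hearts with liver markers, and 1288 to 2887 with single hearts left out, the lowest without *Pde2A*-/- replicate D. The counts lower were 90, 2354, 50 and 414 to 2165, and 744 without *Pde2A*+/+ replicates 7 and 11. Of the pathway genes, 8 to 12 were higher and 1 to 2 lower with single hearts left out, 3 and 0 without the hearts with liver markers, and 1 was lower without *Pde2A*+/+ replicates 7 and 11. Fewer than 50 counts per heart on *Edn3* and *Agt* limit what their tests can show. No paired analysis was possible because the replicate names are not shared between the genotypes.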
